A study of Mus musculus with 12 samples.

Results

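The collagen genes were the gene symbols made of Col, a number, the letter a and a number that had at least 10 counts in at least 3 of 12 mouse libraries. Of 44 such symbols in a table of 21878 genes, 34 met this rule, and all 34 also passed the low-count filter of the test. By chain type, 10 were fibrillar, 5 were basement membrane and 19 were other collagens. Col4a4 was the nearest to the limit on the inside, with 10 counts reached in 6 libraries. Col6a4 and Col4a3 were the nearest on the outside, with 2 libraries each. The other symbols outside the rule were Col2a1, Col6a6, Col9a1, Col9a2, Col17a1, Col19a1, Col25a1 and Col26a1.

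Collagens are matrix proteins whose chains wind into a helix. Fibrillar collagens such as types I, III and V form the fibres that give tissue its tensile strength, and in liver they are made mainly by stellate cells and other fibroblasts. Collagen IV forms the sheet of the basement membrane under endothelium and epithelium. The remaining collagens bind to fibrils, form microfibrils or short networks, span the cell membrane or, as multiplexins, carry sulfated sugar chains at basement membranes.

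Gene expression had been measured by RNA sequencing of total RNA labelled as mouse hepatocellular carcinoma, with Liver as the tissue and Hepa1-6, a mouse hepatoma line, as the cell line. There were 4 groups of 3 libraries: the combination (mIFNalpha, an interferon alpha, with an anti-PD-1 antibody), antiPD1 (the antibody alone), IFNa (mIFNalpha alone) and untreated. The antibody blocks the T cell checkpoint receptor PD-1. The labels used here name no dose, time, strain or age and do not tell whether a replicate is its own animal or culture, so p-values measure only the spread between these samples, which may be technical.

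Library totals were 31.3 to 38.5 M (mega) counts, with 15678 to 16377 genes counted. Summed hepatoma and hepatocyte markers were at 13900 to 27400 CPM (counts per M, scaled for library composition) over all 12 libraries, so these transcripts were abundant in each. Transcripts of other cells were present too, and summed leukocyte markers were at 243 to 3890 CPM. In a principal component analysis of the 14330 genes that passed the low-count filter, 3 libraries lay apart from their own group. On the first component antiPD1 replicate 3 was at 91.9 (other antiPD1 libraries at 10.8 and 22.9) and untreated replicate 3 at -22.6 (other untreated libraries at -73.7 and -72.1). On the second, IFNa replicate 1 was at -70.6 (other IFNa libraries at 11.4 and 15). In bulk RNA, fewer cells of a type and less RNA per cell cannot be told apart.

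Levels per length, in FPKM (fragments per kilobase and M fragments), spanned a wide range. Col1a1 and Col1a2, the chains of the main fibre collagen type I, averaged 87.1 and 71.8 FPKM over the 12 libraries. Col3a1, the chain of type III collagen, averaged 47.9 FPKM, ahead of Col4a1 (27.2 FPKM), Col4a2 (23.3 FPKM), Col18a1 (21.5 FPKM) and Col6a1 (12.1 FPKM). These 7 genes were the members at or above 10 FPKM, and 17 members averaged under 1 FPKM. Col1a1, Col1a2 and Col3a1 together made up 57.5%, 57.1% and 60.7% of the summed FPKM of the members in combination libraries, 58.1%, 62% and 67.6% in antiPD1, 54.6%, 58.6% and 61% in IFNa and 48.9%, 47.2% and 58.7% in untreated libraries. The type I and III chains were thus most of the collagen mRNA per length in every library except untreated replicates 1 and 2.

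Summed over the 34 members, expression was 388, 339 and 395 FPKM in combination libraries, 484, 299 and 747 FPKM in antiPD1, 275, 283 and 309 FPKM in IFNa, and 162, 113 and 371 FPKM in untreated libraries. The antiPD1 libraries spread over the widest range, and untreated replicate 3 lay above all IFNa libraries and within the range of the combination libraries. The members took 0.106% (untreated replicate 2) to 0.602% (antiPD1 replicate 3) of all counts. Untreated replicate 2 was the lowest of the 12 libraries for 19 members, and antiPD1 replicate 3 was the highest for 15. Within the untreated group, replicate 3 was the highest library for 26 members and replicate 2 the lowest for 26. The median coefficient of variation of the members was 14.9% in combination libraries, 44.7% in antiPD1, 22.7% in IFNa and 62.9% in untreated libraries.

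**Figure D1:**
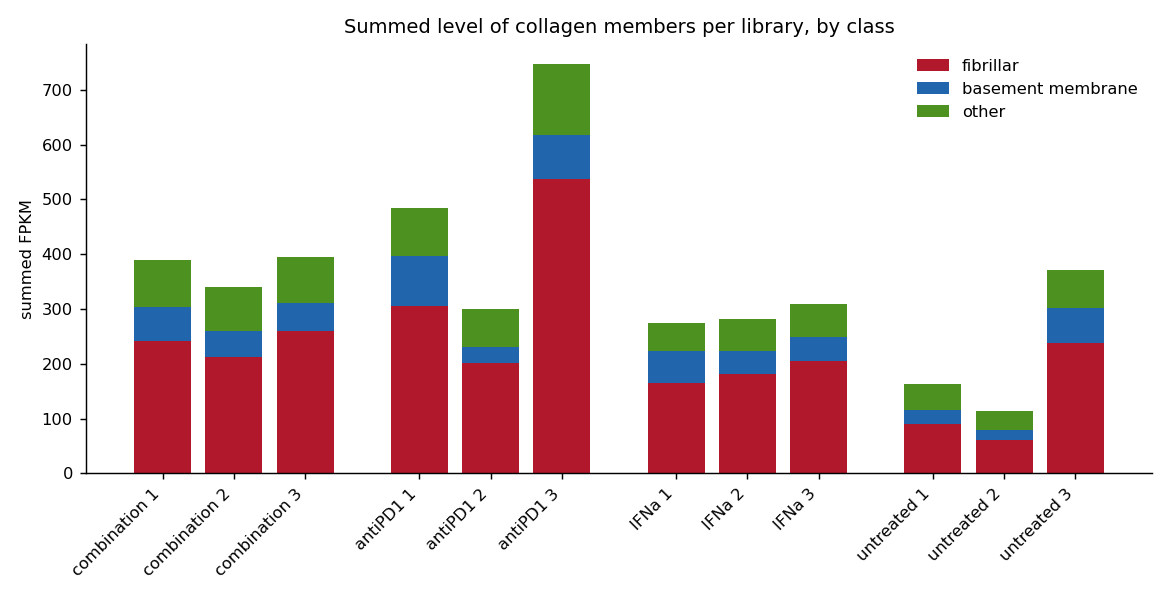
Summed FPKM of the fibrillar, basement membrane and other collagen members in each of the 12 libraries, stacked in 1 bar per library, with libraries along the x axis by group and replicate. The fibrillar part is the largest in every bar, and it is highest in antiPD1 replicate 3 (538 FPKM) and lowest in untreated replicate 2 (61.3 FPKM).

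Among the fibrillar collagens, Col1a1 had 567, 494 and 634 CPM in combination libraries, 831, 534 and 1500 CPM in antiPD1, 484, 483 and 538 CPM in IFNa, and 240, 173 and 648 CPM in untreated libraries. Col1a2 had 470, 414 and 504 CPM in combination libraries, 572, 413 and 1140 CPM in antiPD1, 350, 368 and 406 CPM in IFNa, and 191, 123 and 485 CPM in untreated libraries. In both genes untreated replicates 1 and 2 were the lowest of all libraries, untreated replicate 3 lay above every IFNa library, and all treated groups overlapped the untreated range. Col3a1 had 452, 365 and 427 CPM in combination libraries, 497, 325 and 1090 CPM in antiPD1, 234, 286 and 330 CPM in IFNa, and 144, 92.8 and 350 CPM in untreated libraries. The combination libraries lay above all untreated and all IFNa libraries in Col3a1, and antiPD1 replicate 2 was below untreated replicate 3.

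Col5a1 and Col5a2, chains of type V collagen, which sits inside type I fibrils and limits their width, followed the same libraries. Col5a1 had 60.1, 47.3 and 57.2 CPM in combination libraries, 87.5, 42.5 and 114 CPM in antiPD1, 64.8, 59.7 and 59.4 CPM in IFNa, and 35, 21.4 and 79.3 CPM in untreated libraries. Col5a2 had 98.2, 93.9 and 103 CPM in combination libraries, 131, 84.5 and 211 CPM in antiPD1, 86.5, 70.1 and 78.9 CPM in IFNa, and 43.1, 25.5 and 97.3 CPM in untreated libraries. Col5a3, the third type V chain, had 13.9, 13.3 and 17.5 CPM in combination libraries, 23.9, 11.1 and 30.9 CPM in antiPD1, 10.5, 11.8 and 12.6 CPM in IFNa, and 6.52, 4.27 and 13.5 CPM in untreated libraries. In each type V gene untreated replicate 3 lay above every IFNa library, and all treated groups overlapped the untreated range. Col27a1, a cartilage fibrillar collagen, did not follow them and had 42.7, 57.8 and 41.5 CPM in combination libraries, 41.1, 65.1 and 49.3 CPM in antiPD1, 24.7, 59.9 and 53.9 CPM in IFNa, and 64.5, 57.4 and 58.5 CPM in untreated libraries. Its lowest value was that of IFNa replicate 1, and the groups overlapped. Col11a1, Col11a2 and Col24a1, minor chains of cartilage and bone, averaged under 3 CPM in every group.

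Type IV collagen was carried by Col4a1 and Col4a2, which join in the same helix in most basement membranes. Col4a1 had 414, 334 and 347 CPM in combination libraries, 628, 208 and 568 CPM in antiPD1, 411, 308 and 288 CPM in IFNa, and 175, 129 and 444 CPM in untreated libraries. Col4a2 had 292, 207 and 244 CPM in combination libraries, 438, 141 and 374 CPM in antiPD1, 305, 201 and 200 CPM in IFNa, and 121, 90.1 and 292 CPM in untreated libraries. In both genes antiPD1 replicate 2 was the lowest treated library, and all 3 treated groups overlapped the untreated group. Col4a5, a chain of more specialised basement membranes, had 7.98, 2.94 and 3.75 CPM in combination libraries, 3.8, 2.44 and 5.81 CPM in antiPD1, 2.22, 1.69 and 1.81 CPM in IFNa, and 0.324, 0.745 and 3.6 CPM in untreated libraries. Col4a6 averaged 0.77 ± 0.563 CPM in combination libraries, 0.441 ± 0.146 CPM in antiPD1, 0.226 ± 0.0982 CPM in IFNa and 0.19 ± 0.137 CPM in untreated libraries (SD, n = 3 each), and Col4a4 was lower than 0.4 CPM in every group mean.

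Of the remaining collagens, the type VI chains Col6a1, Col6a2 and Col6a3, which build the beaded microfibrils around cells, were with Col15a1 the most abundant per length after Col18a1. Col6a1 had 71.2, 83.4 and 91.7 CPM in combination libraries, 114, 83.9 and 193 CPM in antiPD1, 82.2, 60.5 and 67.2 CPM in IFNa, and 36, 31.6 and 75.9 CPM in untreated libraries. Col6a2 had 61.2, 70.7 and 77.5 CPM in combination libraries, 90.6, 70.3 and 164 CPM in antiPD1, 55.9, 56.1 and 57.8 CPM in IFNa, and 26.7, 25.2 and 68.1 CPM in untreated libraries. In both, every antiPD1 library lay above every untreated library. Col6a3 had 109, 96 and 116 CPM in combination libraries, 122, 77.6 and 216 CPM in antiPD1, 88.5, 86.1 and 68.6 CPM in IFNa, and 43.9, 36.2 and 110 CPM in untreated libraries. Col16a1, a collagen bound to fibril surfaces, had 8.51, 6.86 and 7.2 CPM in combination libraries, 8.95, 6.54 and 20.4 CPM in antiPD1, 4.71, 4.95 and 6.03 CPM in IFNa, and 3.02, 2.1 and 5.47 CPM in untreated libraries. All combination and antiPD1 libraries exceeded all IFNa and untreated libraries in Col16a1, while Col6a3 overlapped between the untreated group and each treated one.

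Col8a1, a short-chain collagen that forms networks in vessel walls, had 47.8, 40.7 and 38.1 CPM in combination libraries, 30.9, 29.9 and 23 CPM in antiPD1, 10.2, 18.3 and 17.5 CPM in IFNa, and 16.7, 11.4 and 20.7 CPM in untreated libraries. The combination group lay wholly above the antiPD1 group, which lay wholly above the other two groups. Col28a1, a little-studied collagen with von Willebrand domains, had 2.9, 2.65 and 3.12 CPM in combination libraries, 1.7, 1.19 and 1.62 CPM in antiPD1, 1.41, 1.8 and 1.73 CPM in IFNa, and 2.63, 1.76 and 2.35 CPM in untreated libraries. Its antiPD1 libraries were all below the untreated ones, and its combination libraries all above them.

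The multiplexins Col15a1 and Col18a1 differed in how they varied. Col15a1 had 89.2, 88.8 and 99.2 CPM in combination libraries, 89, 63.7 and 148 CPM in antiPD1, 33.5, 64.8 and 58.8 CPM in IFNa, and 38.5, 20.8 and 75.1 CPM in untreated libraries. Col18a1, the precursor of the fragment endostatin and a gene that hepatocytes also express, had 329, 233 and 229 CPM in combination libraries, 257, 254 and 366 CPM in antiPD1, 178, 257 and 229 CPM in IFNa, and 285, 230 and 238 CPM in untreated libraries. Col18a1 therefore covered 1.04 log2 units over the 12 libraries, against 2.83 for Col15a1 and 3.12 for Col1a1. It made up 18.5% and 20.4% of the members' summed CPM in untreated replicates 1 and 2, and 5.7% to 10.3% in the other 10 libraries.

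The rest of the members were low or intermediate. Col14a1 and Col12a1, which sit on fibril surfaces, averaged 82.7 ± 8.7 and 37 ± 3.26 CPM in combination libraries, 96.4 ± 40.7 and 56.6 ± 14.4 CPM in antiPD1, 44.4 ± 3.28 and 39.9 ± 22.2 CPM in IFNa, and 37 ± 28 and 24.2 ± 13.9 CPM in untreated libraries (SD, n = 3 each). Col20a1, of the same family, stayed between 7.44 and 13.8 CPM in all 12 libraries. Col9a3, a cartilage chain, averaged 2.77 to 4.17 CPM per group and Col7a1, the anchoring fibril collagen of skin, 1.82 to 2.67 CPM. The membrane-spanning Col13a1 and Col23a1, the fibril-associated Col22a1, the network chains Col8a2 and Col10a1 and the type VI chain Col6a5 were all between 0.185 and 1.11 CPM in every group mean.

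**Figure D2:**
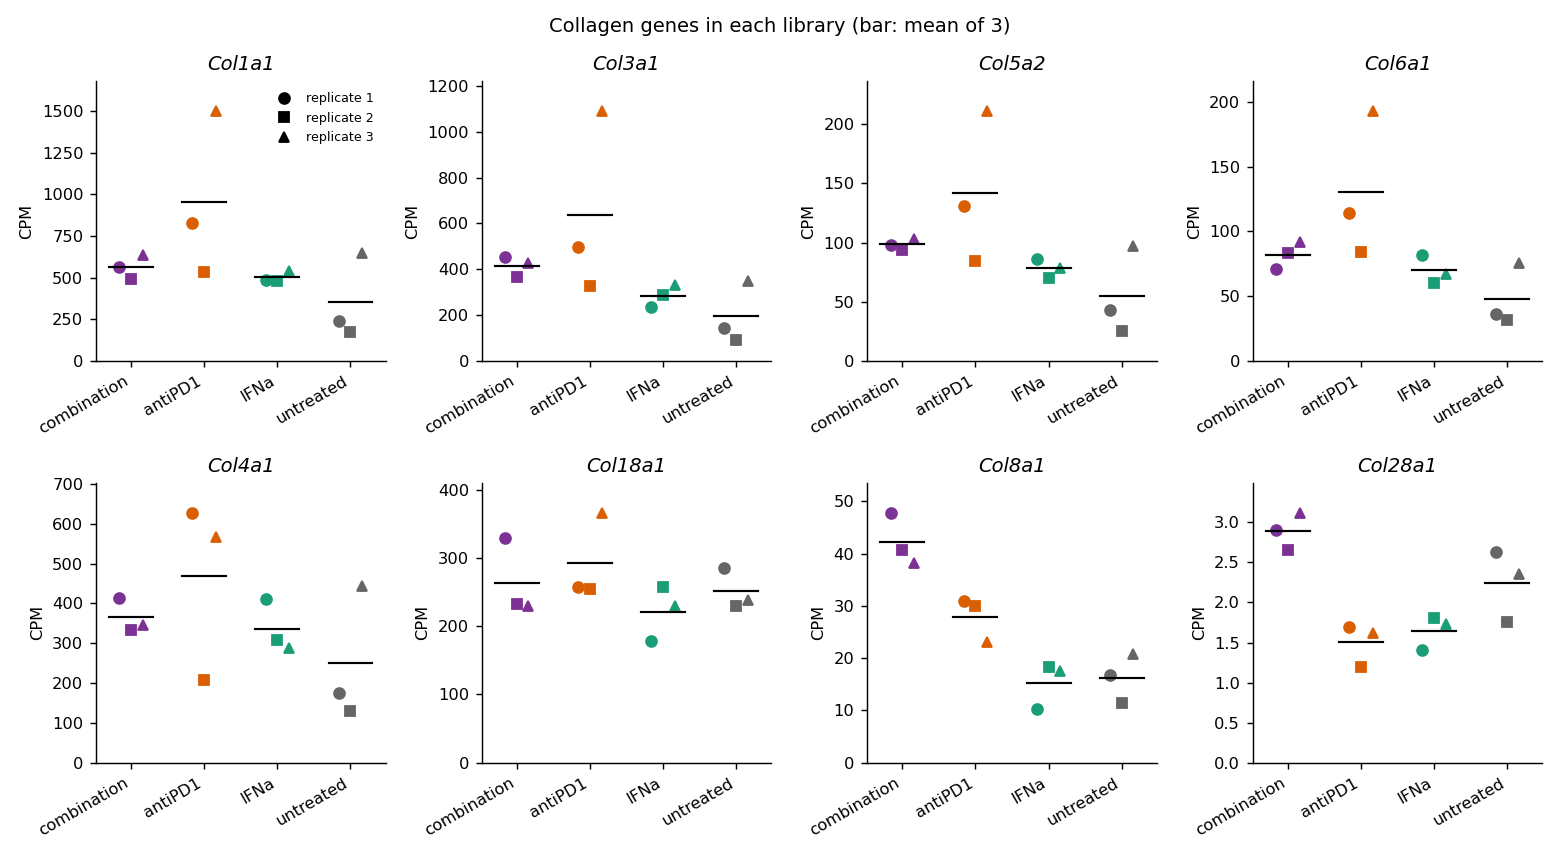
CPM of Col1a1, Col3a1, Col5a2, Col6a1, Col4a1, Col18a1, Col8a1 and Col28a1 in each of the 12 libraries on linear axes from 0, with groups along the x axis, a symbol for each replicate number and a line at the group mean. In the panels of Col1a1, Col3a1, Col5a2 and Col6a1, untreated replicates 1 and 2 are lowest and antiPD1 replicate 3 is highest, and in that of Col8a1 the combination libraries (38.1 to 47.8 CPM) are above all others.

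With the antibody alone, 5 collagen genes rose against untreated libraries and 0 fell. They were Col16a1, Col6a1 and Col6a2 among the other collagens, and Col3a1 and Col5a3 among the fibrillar ones, and each was between 2.7 and 3.38 times its untreated level. The 5 risen members were 14.7% of 34, beside 9.76% of all 14330 genes tested, and the 0 fallen stood beside 5.08%. In direction alone, 30 of 34 members were higher, beside 48.7% of all genes, with a median log2 fold change of 0.91 over the members and -0.01 over all genes. The other members with a positive estimate, among them the type I and IV chains, did not pass.

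In GENCODE M21 on mm10, Col16a1 is at chr4:130047840-130099283, Col6a1 at chr10:76708792-76726168, Col6a2 at chr10:76595762-76623630, Col3a1 at chr1:45311538-45349706 and Col5a3 at chr9:20770050-20815067. The log2 fold change of Col16a1 was 1.76 ± 0.43 (standard error, as for all fold changes here) with an adjusted p of 0.0278 in edgeR's quasi-likelihood test over all genes, higher in 3 of 3 antiPD1 libraries than in any untreated library. Col6a1 (1.45 ± 0.36, adjusted p 0.028) and Col6a2 (1.44 ± 0.39, adjusted p 0.0349) likewise had no overlap between the groups. Col3a1 (1.70 ± 0.50, adjusted p 0.0447) and Col5a3 (1.43 ± 0.42, adjusted p 0.0438) passed although antiPD1 replicate 2 lay below untreated replicate 3. The type I chains had estimates of similar size that missed the threshold, 1.43 ± 0.46 for Col1a1 (adjusted p 0.0607) and 1.41 ± 0.47 for Col1a2 (adjusted p 0.065). Col4a2 had the smallest p among the basement membrane chains, at 0.92 ± 0.47 (adjusted p 0.189). In the other direction, Col28a1 was at -0.58 ± 0.26 (adjusted p 0.148) and Col27a1 at -0.21 ± 0.28 (adjusted p 0.629), and neither passed.

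By class, the medians of the log2 fold changes were 1.10 over fibrillar, 0.92 over basement membrane and 0.78 over the other collagens. Without untreated replicate 3 the fibrillar and basement membrane medians were 1.77 and 1.73, and the lowest values on leaving out 1 library were 0.71 over fibrillar (without antiPD1 replicate 3) and 0.62 over basement membrane (without untreated replicate 2). The median over the other collagens ran between 0.62 and 1.15. Values did not overlap, with antiPD1 above, for 6 members (17.5% of all genes), namely Col6a1, Col6a2, Col8a1, Col11a2, Col12a1 and Col16a1, and with antiPD1 below for Col28a1 alone (18.5% of all genes). The count of risen members depended on single libraries: it was 0 without untreated replicate 1, untreated replicate 2 or antiPD1 replicate 3, 2 without IFNa replicate 2, combination replicate 2 or combination replicate 3, 3 without IFNa replicate 3 or combination replicate 1, 11 without antiPD1 replicate 2 and 18 without untreated replicate 3. The count over all genes moved with it, at 1398 risen with every library in, 2 without untreated replicate 1, 2 without untreated replicate 2, 200 without antiPD1 replicate 3, 1871 without antiPD1 replicate 2 and 1787 without untreated replicate 3. Risen members numbered 14 with DESeq2 (2171 of all genes), 2 with no low-count filter (1211), 0 in edgeR with only the groups compared (0), and 1 (Col8a1) without both IFNa replicate 1 and antiPD1 replicate 3 (883).

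With the combination, Col8a1 rose and no other collagen gene passed against untreated libraries. Its log2 fold change was 1.37 ± 0.25, or 2.59-fold, with an adjusted p of 0.0159 in edgeR's test, and the gene lies at chr16:57624258-57754737. That is 1 of 34 members risen and 0 fallen, beside 7.58% risen and 5% fallen among all genes. In direction, 30 of 34 members were higher (48.8% of all genes), and the median log2 fold changes were 0.72 over all members, 0.68 over fibrillar, 0.59 over basement membrane and 0.78 over the other collagens, against -0.01 over all genes. Those of the members were 1.35, 1.21, 1.42 and 1.28 in the same order without untreated replicate 3, and 0.47, 0.39, 0.25 and 0.55 without untreated replicate 2.

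Every combination library exceeded every untreated library for 12 members, 35.3% of 34, beside 24.7% of all genes. For 0 members they lay wholly below (24.8% of all genes). The 12 were Col3a1 and Col11a2 of the fibrillar class, Col4a6 of the basement membrane class, and Col6a5, Col8a1, Col9a3, Col13a1, Col14a1, Col15a1, Col16a1, Col23a1 and Col28a1. Col3a1, at 1.08 ± 0.49 (adjusted p 0.158), and Col4a6, at 1.99 ± 0.68 (adjusted p 0.0742), had non-overlapping values but did not pass. Col27a1 (-0.34 ± 0.28, adjusted p 0.43) and Col10a1, a chain of growth cartilage (-0.59 ± 0.97, adjusted p 0.708), had the smallest p-values among the negative estimates of their classes. The count of risen members was 15 without untreated replicate 3, 2 without IFNa replicate 1 or antiPD1 replicate 3, 3 without the pair of IFNa replicate 1 and antiPD1 replicate 3, and 0 without untreated replicate 1, untreated replicate 2 or any of the combination libraries. Over all genes, 1086 rose with every library in, 1567 without untreated replicate 3, 39 and 43 without untreated replicates 1 and 2, and 124, 86 and 21 without combination replicates 1, 2 and 3. DESeq2 called 5 members (1821 of all genes), and edgeR with only the groups compared called 2 (1977 of all genes), Col8a1 in each case included.

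With IFNa alone, 0 collagen genes rose and 0 fell against untreated libraries in edgeR's test, as was so for all genes (0% risen and 0% fallen). Among the members 0 had an unadjusted p under 0.05, where 2.24% of all genes were higher and 3.35% lower, and DESeq2 and limma also called 0 members. In direction, 28 of 34 members were higher, beside 51.8% of all genes, with a median log2 fold change of 0.41 against 0.01 over all genes. That median was 1.04 without untreated replicate 3 and 0.16 without untreated replicate 2. Col6a5, an alternative type VI chain, had the largest estimate, 1.83 ± 0.90 (adjusted p 0.885), and Col11a1 the lowest, -1.38 ± 0.84 (adjusted p 0.885). Col6a5 had 1, 1 and 16 counts in untreated libraries, the lower values being under the floor of 3 counts taken as detected, and its estimate was 4.21 without untreated replicate 3 and 1.35 without untreated replicate 1. That of Col11a1 was -0.27 without untreated replicate 1 and -1.90 without IFNa replicate 1. The smallest p among the other estimates by class and direction belonged to Col28a1 (-0.45 ± 0.26, adjusted p 0.885), Col5a3 (0.52 ± 0.42, adjusted p 0.885) and Col4a2 (0.49 ± 0.46, adjusted p 0.904). For all 34 members the IFNa and untreated values overlapped, while 4.96% of all genes had IFNa values wholly above and 5.22% wholly below.

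**Figure D3:**
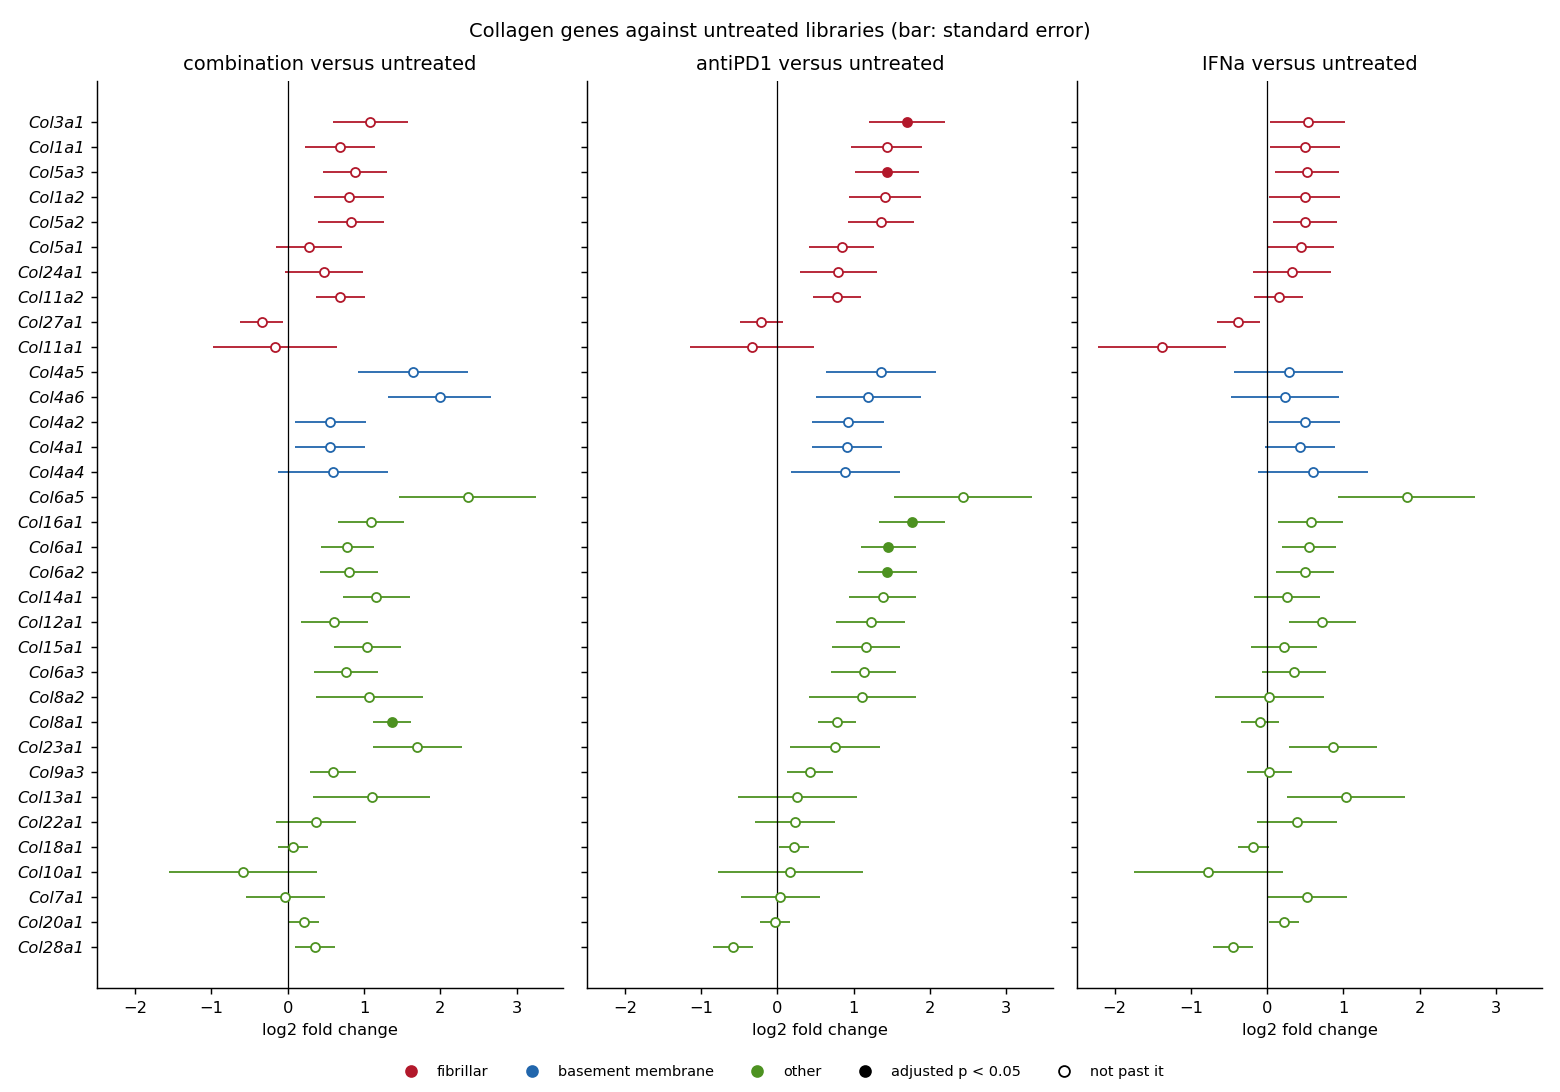
Log2 fold changes of the 34 collagen members against untreated libraries with the combination, antiPD1 and IFNa, with bars of 1 standard error, filled where the adjusted p passed and coloured by class. All 3 panels share the untreated libraries; 5 points are filled with antiPD1, 1 (Col8a1) with the combination and 0 with IFNa.

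Adding IFNa to the antibody was addressed by the combination against antiPD1. In edgeR's test 0 members rose and 0 fell, as for all genes (0% each way). At an unadjusted p under 0.05, 2 members, Col8a1 and Col28a1, were higher with the combination (2.19% of all genes), and 0 were lower (2.57%). DESeq2 and limma called 0 members. Of the 34 members, 10 were higher, beside 46.6% of all genes, and 24 had a negative estimate, with medians of -0.54 over fibrillar, -0.30 over basement membrane and -0.07 over the other collagens, against -0.02 over all genes. Without antiPD1 replicate 3 the fibrillar median was -0.12, and without antiPD1 replicate 1 the basement membrane median was 0.25 and that of the other collagens 0.11. Col1a1 was at -0.76 ± 0.46 (adjusted p 0.997) and Col28a1 at 0.94 ± 0.26 (unadjusted p 0.0043, adjusted p 0.991). Col8a1 was at 0.59 ± 0.25, Col6a1 at -0.67 ± 0.35, Col4a6 at 0.80 ± 0.62 and Col4a1 at -0.36 ± 0.46 (adjusted p 0.997 for each), and Col11a1 was at 0.16 ± 0.81 (adjusted p 1). The values of Col8a1 and Col28a1 were higher in every combination library (7.49% of all genes), and those of Col12a1, a fibril-associated collagen, lower in every one (6.66% of all genes).

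Adding the antibody to IFNa was addressed by the combination against IFNa, where Col8a1 was again the member that rose, by 1.46 ± 0.26 on the log2 scale, or 2.75-fold (adjusted p 0.031, edgeR's test). It was 1 of 34 members, beside 0.342% risen and 0.614% fallen of all genes. Combination values lay above all IFNa values for 15 members, 44.1% of 34 and beside 20.3% of all genes, while IFNa values lay above for 0 members (16.4% of all genes). The 15 included Col1a2, Col3a1, Col5a2, Col5a3, Col6a2, Col6a3, Col14a1, Col15a1 and Col16a1. Col8a1 did not pass without IFNa replicate 2, IFNa replicate 3 or any of the combination libraries, and in these settings 15, 7, 5, 0 and 2 of all genes rose, against 49 with every library in. None of the other members named here passed: Col4a6 was at 1.76 ± 0.66 (adjusted p 0.145), Col11a2 at 0.54 ± 0.32 (adjusted p 0.33), Col7a1 at -0.55 ± 0.52 (adjusted p 0.555), Col5a1 at -0.16 ± 0.43 (adjusted p 0.855) and Col4a4 at -0.01 ± 0.69 (adjusted p 0.996).

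The interaction term asks whether the combination differed from the sum of the separate changes on the log2 scale. In edgeR's test 0 members passed in either direction, as for all genes (0% each way). At an unadjusted p under 0.05, Col28a1 had a positive term (1.39 ± 0.37, adjusted p 0.583) and Col6a1 a negative one (-1.22 ± 0.50, adjusted p 0.799). Of all genes, 3.59% had a positive and 2.46% a negative term at that unadjusted p. In the other classes the smallest p-values were those of Col1a1 (-1.26 ± 0.65, adjusted p 0.799), Col11a1 (1.54 ± 1.16, adjusted p 0.831), Col4a2 (-0.85 ± 0.66, adjusted p 0.833) and Col4a6 (0.57 ± 0.96, adjusted p 0.909). DESeq2 and limma called 0 members. The term was positive for 11 of 34 members, beside 45.9% of all genes, and negative for 23. Its median was -0.53 over the members against -0.03 over all genes. The median over the members was -1.17 without untreated replicate 3 and -0.29 without untreated replicate 2.

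**Figure D4:**
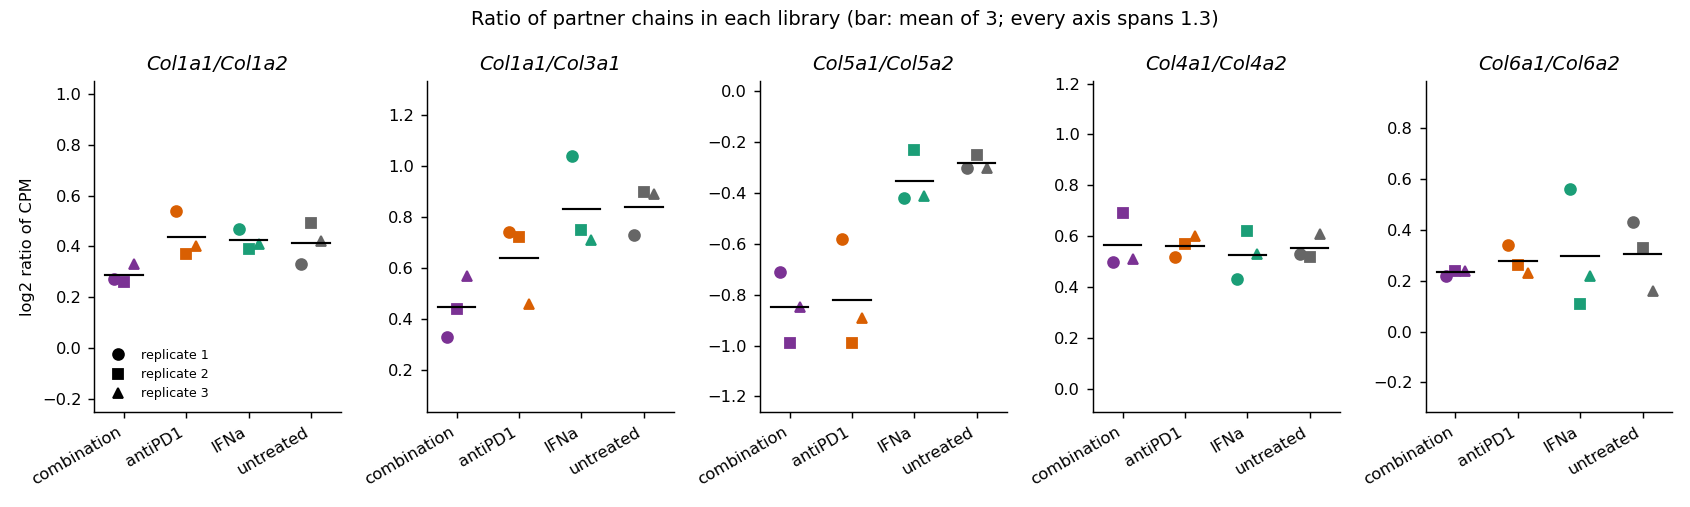
Log2 ratios of CPM of 5 pairs of collagen genes in each of the 12 libraries, by group, with a symbol for each replicate number and a line at the group mean. The Col5a1 to Col5a2 ratio lies between -0.99 and -0.58 in the combination and antiPD1 libraries and between -0.42 and -0.23 in the IFNa and untreated libraries, whereas the Col4a1 to Col4a2 ratio keeps to 0.43 to 0.69 throughout.

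Chains of types I and IV that share a helix kept close to constant proportions while their levels moved. The log2 ratio of Col1a1 to Col1a2 lay between 0.26 and 0.54 in all 12 libraries, a 1.22-fold range, while Col1a1 itself covered 3.12 log2 units. The ratio of Col4a1 to Col4a2 lay between 0.43 and 0.69, a 1.2-fold range, against 2.28 log2 units for Col4a1. The ratio of Col6a1 to Col6a2 lay between 0.11 and 0.56. That of Col6a3 to Col6a1 was wider, between -0.11 and 0.62.

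The type V ratio lay lower in the libraries given the antibody. The log2 ratio of Col5a1 to Col5a2 was -0.71, -0.99 and -0.85 in combination libraries, -0.58, -0.99 and -0.89 in antiPD1, -0.42, -0.23 and -0.41 in IFNa, and -0.30, -0.25 and -0.30 in untreated libraries. All libraries given the antibody were thus below all libraries not given it, and those given IFNa alone overlapped the untreated ones. An exact two-sided permutation test gave p = 0.1 for the combination and for antiPD1 against untreated, the smallest value that 3 against 3 libraries allow, and 0.35 after adjustment over the 35 ratio tests. The Col1a1 to Col3a1 ratio was 0.33, 0.44 and 0.57 in combination libraries, 0.74, 0.72 and 0.46 in antiPD1, 1.04, 0.75 and 0.71 in IFNa, and 0.73, 0.90 and 0.89 in untreated libraries. The combination libraries had the lowest values apart from antiPD1 replicate 3.

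Several members of these pairs are neighbours in the genome (GENCODE M21, mm10). Col4a1 (chr8:11198423-11312826, minus strand) and Col4a2 (chr8:11312805-11449287, plus strand) face away from each other with their first exons overlapping by 22 bases. Whether the counting used strand is not given in the sources used here, so reads from these bases could not be told apart, though they are 0.29% and 0.33% of the exonic bases of the genes. Col4a5 and Col4a6 on chromosome X also face away from each other, with starts 1309 bases apart. Col6a1 and Col6a2 lie 85.2 kb apart on chromosome 10 and Col3a1 and Col5a2 lie 24.6 kb apart on chromosome 1, whereas Col1a1 (chromosome 11) and Col1a2 (chromosome 6) are unlinked.

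The promoters of Col4a1 and Col4a2, a pair that moved together, are shown with those of Col1a2, an abundant chain that passed in no comparison, Col3a1, which rose with antiPD1, and Col8a1, which rose with the combination, as RefSeq windows on GRCm38.p6 from 250 bases before to 50 bases after the start, in the direction of the gene. Capitals mark the CCAAT box, the GC box core with the letters GGGCGG, and the TATA box with the letters TATAAA, each on either strand. None of these motifs contains another. The windows of Col4a1 and Col4a2 share 78 bases, read on opposite strands.

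Col4a1, chr8:11312777-11313076, minus strand: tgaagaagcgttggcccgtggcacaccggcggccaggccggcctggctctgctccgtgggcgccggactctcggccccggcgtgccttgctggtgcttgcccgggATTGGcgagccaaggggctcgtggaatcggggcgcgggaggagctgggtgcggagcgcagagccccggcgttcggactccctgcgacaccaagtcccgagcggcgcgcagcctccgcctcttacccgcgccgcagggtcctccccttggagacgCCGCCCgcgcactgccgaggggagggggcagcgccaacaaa

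Col4a2, chr8:11312555-11312854, plus strand: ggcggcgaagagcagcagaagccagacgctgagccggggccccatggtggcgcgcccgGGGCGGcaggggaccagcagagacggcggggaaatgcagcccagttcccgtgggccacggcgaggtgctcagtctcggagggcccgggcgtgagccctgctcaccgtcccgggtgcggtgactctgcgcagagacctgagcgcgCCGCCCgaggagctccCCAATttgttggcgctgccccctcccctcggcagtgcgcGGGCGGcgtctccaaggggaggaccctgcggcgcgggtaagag

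Col1a2, chr6:4505368-4505667, plus strand: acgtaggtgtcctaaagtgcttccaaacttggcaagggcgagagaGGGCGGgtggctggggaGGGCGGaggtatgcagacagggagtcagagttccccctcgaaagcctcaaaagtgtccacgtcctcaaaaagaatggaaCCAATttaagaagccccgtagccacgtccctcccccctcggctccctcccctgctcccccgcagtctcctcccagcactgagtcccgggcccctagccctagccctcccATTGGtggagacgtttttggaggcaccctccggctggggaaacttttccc

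Col3a1, chr1:45311288-45311587, plus strand: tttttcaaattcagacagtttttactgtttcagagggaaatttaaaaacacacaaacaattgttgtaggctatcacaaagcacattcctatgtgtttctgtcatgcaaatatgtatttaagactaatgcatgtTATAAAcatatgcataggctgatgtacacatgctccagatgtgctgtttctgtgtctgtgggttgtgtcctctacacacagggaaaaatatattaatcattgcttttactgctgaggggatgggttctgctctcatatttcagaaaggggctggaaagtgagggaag

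Col8a1, chr16:57754688-57754987, minus strand: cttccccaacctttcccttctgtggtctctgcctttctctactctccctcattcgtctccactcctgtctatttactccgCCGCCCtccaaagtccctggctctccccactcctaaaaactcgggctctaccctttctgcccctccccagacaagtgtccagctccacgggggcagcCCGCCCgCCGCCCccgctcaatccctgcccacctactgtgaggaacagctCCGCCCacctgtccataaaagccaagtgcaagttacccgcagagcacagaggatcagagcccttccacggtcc

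The Col4a1 and Col4a2 windows had a GC content of 74% and 73.7%, with 1 CCAAT box each and with 1 and 3 GC boxes. The GC box of Col4a1 and the last GC box of Col4a2 are the same site, in the bases that the windows share, counted in each. Col1a2 held 2 CCAAT boxes and 2 GC boxes at 61% GC, Col8a1 held 4 GC boxes at 60.3% GC, and Col3a1 held 1 TATA box at 37.7% GC. Windows were found for 28 of 34 members, 30 windows in all. The GC box was in 63.3% of the 30, beside 35.7% of all 32851 promoter windows of the same length. The CCAAT box was in 30% beside 37.4%, and the TATA box in 13.3% beside 13.6%. A match is a description of the letters and no test was made of it.

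Across the 12 libraries, 10 pairs of genes were compared on log2 CPM, with permutation p-values adjusted over the 10. Col1a1 went with Col1a2 at Pearson's r = 0.99 and Spearman's rho = 0.96, with Col3a1 at r = 0.98 and rho = 0.91, and with Col4a1 at r = 0.88 and rho = 0.84. The adjusted permutation p-values of r were 5e-05, 5e-05 and 0.00026. Without the libraries farthest from the median of Col1a1, untreated replicate 2 and antiPD1 replicate 3, r was 0.98, 0.92 and 0.80, and as deviations from the group means it was 0.99, 0.98 and 0.86. Col4a1 with Col4a2 gave r = 0.99 (rho = 0.97), Col6a1 with Col6a2 r = 0.99 (rho = 0.92), each with an adjusted permutation p of 5e-05. The smallest p that the permutations can give is 1e-05 before adjustment. Col1a1 with Col18a1 gave r = 0.38 (rho = 0.31, adjusted permutation p = 0.24), and -0.15 without the same libraries.

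Col1a1, Col4a1 and Col18a1 were also set beside markers of cell types. Col1a1 with Pdgfrb, the PDGF receptor of fibroblasts and pericytes, gave r = 0.87 (rho = 0.76, adjusted permutation p = 0.00014), 0.72 without the 2 farthest libraries and 0.89 within groups. Col4a1 with Pecam1, an endothelial adhesion molecule, gave r = 0.89 (rho = 0.94, adjusted permutation p = 0.00026), 0.98 without untreated replicates 1 and 2, and 0.89 within groups. Col1a1 with Ptprc, the pan-leukocyte antigen CD45, gave r = 0.70 (rho = 0.66, adjusted permutation p = 0.013) and 0.60 within groups. This r was 0.44 without the 2 farthest libraries together and at least 0.54 without any 1 library. The value of 0.54, without antiPD1 replicate 3, did not pass an adjusted permutation p of 0.05. Col18a1 with Hnf4a, a hepatocyte transcription factor, gave r = -0.02 (rho = 0.05, adjusted permutation p = 0.95) and 0.59 within groups.

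**Figure D5:**
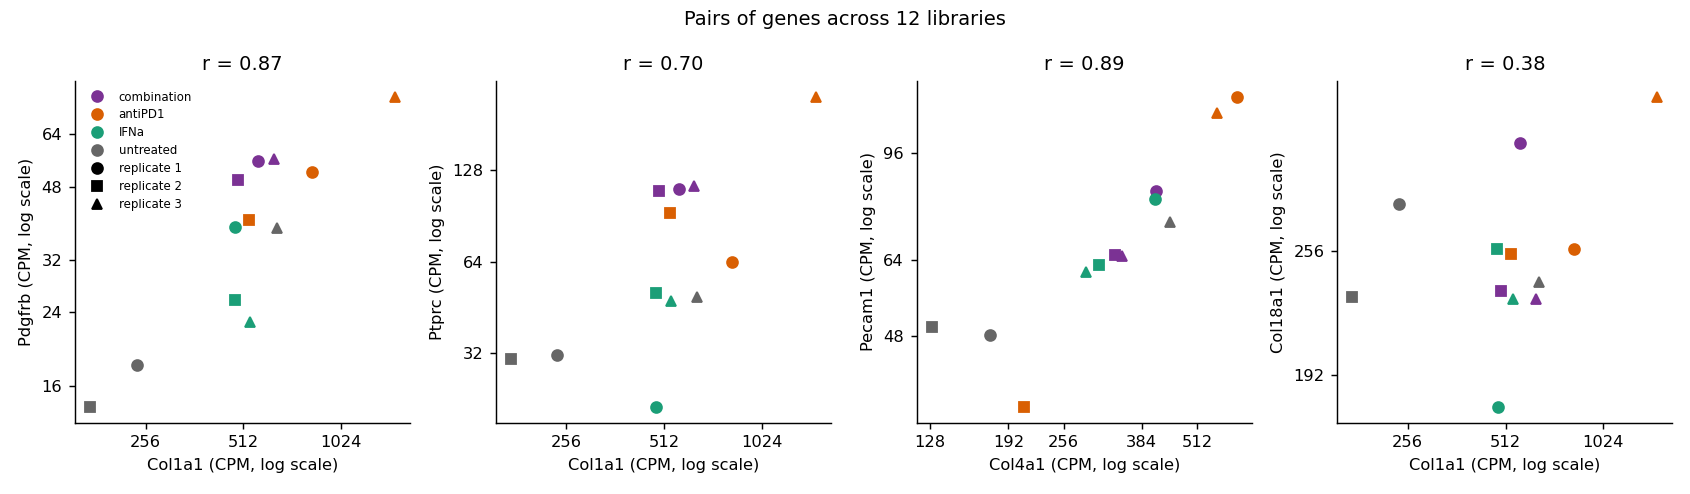
CPM of pairs of genes in the 12 libraries on log axes, with colours for groups and symbols for replicate numbers. Points for Col1a1 and Pdgfrb (r = 0.87) and for Col4a1 and Pecam1 (r = 0.89) lie along a rising line, those for Col1a1 and Ptprc (r = 0.70) less closely, and those for Col1a1 and Col18a1 (r = 0.38) scatter.

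By the same measure, the genes most like Col1a1 over the 12 libraries outside the collagens were Creb3l1 (r = 0.961), Emilin1 (0.959), Tmem119 (0.957), Fstl1 (0.955) and Slc22a17 (0.953). For Col4a1 they were Dpysl3 (0.983), Robo4 (0.978), Pxdn (0.977), Plxnd1 (0.973) and Lama4 (0.972). For Col18a1 they were Pcca (0.961), Fabp1 (0.91), Isoc2b (0.91), Afm (0.906) and Stat5b (0.901). Among the members, Col1a2, Col5a2, Col5a3, Col6a2 and Col3a1 were the most like Col1a1 (0.98 to 0.99), whereas Col20a1 (-0.29), Col27a1 (-0.26), Col22a1 (-0.12) and Col28a1 (-0.12) had the lowest values. These values were picked as the highest of many and describe these libraries only.

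Genes that act on collagens were counted in lists written from general knowledge. Of 19 genes for hydroxylation, glycosylation and folding, 5 rose and 1 fell with antiPD1, among them P4ha1 (0.75 ± 0.10), a prolyl hydroxylase subunit, P3h3 (1.65 ± 0.44) and, fallen, Mia3 (-0.37 ± 0.09), which helps load procollagen into transport vesicles. Serpinh1, the collagen chaperone Hsp47, rose by 1.47 ± 0.44 on the log2 scale with antiPD1 and was at 1.15 ± 0.44 (adjusted p 0.102) with the combination, where 0 of the 19 rose and Mia3 fell. Of the 5 crosslinking oxidases, Loxl3 (2.11 ± 0.42) and Loxl1 (1.88 ± 0.51) rose with antiPD1 and Loxl3 (1.76 ± 0.41) with the combination, while Lox was at 1.75 ± 0.74 and 0.91 ± 0.73 with adjusted p-values of 0.124 and 0.416. Of 9 tested genes for propeptide removal, 2 rose and 2 fell with antiPD1, and 1 rose and 2 fell with the combination. Adamts14, a procollagen N-proteinase, rose in both (1.09 ± 0.33 and 1.69 ± 0.33 with antiPD1 and the combination). The meprin Mep1b fell in both, with means of 0.0749 ± 0.0424 CPM in combination, 0.059 ± 0.00519 CPM in antiPD1 and 1.87 ± 1.1 CPM in untreated libraries (SD, n = 3 each). Mep1b was under the floor of 3 counts in every antiPD1 library and in combination replicate 2.

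Of 17 tested fibril-binding proteoglycans and matrix proteins, 5 rose with antiPD1 and 3 with the combination. Thbs2 (2.80 ± 0.55 with antiPD1, 2.09 ± 0.54 with the combination), Ogn (2.82 ± 0.72 and 3.11 ± 0.72) and Fmod (2.25 ± 0.59 and 2.23 ± 0.59) passed in both. Of 9 tested collagen receptors, 4 rose with antiPD1 and 3 with the combination, of which Lair1, an inhibitory receptor of leukocytes, and Itga10, an integrin chain, passed in both. Of 18 tested genes for degradation and its inhibitors, 4 rose with each, including the gelatinase Mmp2 (2.67 ± 0.54 with antiPD1, 2.1 ± 0.53 with the combination) and Mmp7. Of 17 basement membrane partners, 0 rose with antiPD1 and 0 with the combination. In all of these lists 0 genes passed with IFNa. These counts can be read against the 9.76% risen with antiPD1 and 7.58% with the combination among all genes. Counts for these lists and for the marker lists were made only in edgeR's test with every library in. Without untreated replicate 1, 2 of all genes rose with antiPD1 and 39 with the combination.

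Markers of fibroblasts and pericytes, of endothelium and of leukocytes were mostly higher with antiPD1, the combination and IFNa alone, as the collagens were. With IFNa alone, 18 of 22, 16 of 16 and 12 of 15 were higher in that order, beside 51.8% of all genes. Of 10 epithelial and bile duct markers, 4 were higher with antiPD1, 2 with the combination and 6 with IFNa alone. Of all genes, 48.7% were higher with antiPD1 and 48.8% with the combination. Of 22 fibroblast and pericyte markers, 10 rose and 0 fell with antiPD1, and 5 rose and 0 fell with the combination, and their summed level was 441 to 518 CPM in combination libraries, 381 to 646 CPM in antiPD1, 295 to 347 CPM in IFNa and 181 to 393 CPM in untreated libraries. Pdgfrb had 55.3, 49.9 and 55.9 CPM in combination libraries, 52, 40 and 78.9 CPM in antiPD1, 38.5, 25.6 and 22.7 CPM in IFNa, and 17.9, 14.2 and 38.1 CPM in untreated libraries. As in Col1a1, Col1a2 and Col3a1, untreated replicates 1 and 2 were lowest, antiPD1 replicate 3 was highest and untreated replicate 3 stood apart from its group. Of 16 endothelial markers 0 passed with antiPD1, the combination or IFNa alone, though all 16 had positive estimates against untreated with each. The endothelial sum was 349 to 498 CPM in combination libraries and 164 to 694 CPM in antiPD1. It was 273 to 464 CPM in IFNa and 171 to 378 CPM in untreated libraries. Its lowest value was that of antiPD1 replicate 2, the treated library that was also lowest in Col4a1. Within the antiPD1 group, that library was the lowest for 25 of the 34 members.

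Of 15 leukocyte markers, 15 rose with antiPD1 and 7 with the combination. Their sum was 941, 958 and 3890 CPM in antiPD1 replicates 1, 2 and 3, and 1180 to 1500 CPM in combination libraries. It was 270 to 474 CPM in IFNa and 243 to 473 CPM in untreated libraries. Of 9 hepatoma and hepatocyte markers, 0 rose and 2 fell with antiPD1 and with the combination, Afp and Hnf4a in both. Among all genes, 5.08% fell with antiPD1 and 5% with the combination. In direction, 6 of the 9 markers were higher with antiPD1 (median log2 fold change 0.56) and 5 with the combination (median 0.41). Summed pancreatic acinar markers were at 15.6 to 98 CPM and adipocyte markers at 19.6 to 105 CPM over all libraries. Cartilage and bone markers were at 24.2 to 39.4 CPM, and muscle markers at 0.648 to 2.4 CPM. Runx2 (23.2 to 37.4 CPM) made up nearly all of the cartilage and bone sum. Fabp4 (16.9 to 101 CPM) made up most of the adipocyte sum, with Adipoq at most at 0.0566 CPM. Cela1 made up nearly all of the acinar sum except in combination replicates 1 and 2 and untreated replicates 2 and 3. In these libraries the acinar enzyme Cpa1 was at 2.29 to 7.89 CPM, and elsewhere at most at 0.0831 CPM. Of these lists, Cela1 of the acinar one fell with antiPD1 (-0.98 ± 0.17, adjusted p 0.0191 in edgeR's test), Plin4 of the adipocyte one rose with antiPD1 (4.15 ± 0.87, adjusted p 0.0207), and Cidec of the adipocyte one fell in the combination against IFNa (-2.18 ± 0.44, adjusted p 0.047). Plin4 averaged 2.15 ± 1.96 CPM in antiPD1 and 0.117 ± 0.0309 CPM in untreated libraries (SD, n = 3 each), the untreated values being near the floor of 3 counts. Epithelial and bile duct markers, of which 2 of 10 fell with antiPD1, summed to 1410 to 2370 CPM. Among all marker lists, Lep of the adipocyte and Ibsp of the bone list were at 0 in all libraries, and no other marker was. The part of these cell types in the collagen differences was not tested.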

How the data were processed

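HISAT2 2.1.0, HTSeq and Cufflinks are named with the mm10 build, per the submitters' processing notes, which do not say which step each served. For the counts, the sources used here give neither the annotation nor the strand setting. The authors deposited a table of whole-number counts per gene and library, and a table of FPKM, fragments per kilobase and M (mega) fragments, for the same 12 libraries. Columns were matched to samples by the labels, and 0 columns belonged to no sample.

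The collagen members, gene lists and tests were chosen with earlier results of these data known. In R 4.3.3, edgeR 4.0.16 was run on the counts: low counts were removed by filterByExpr with a minimum of 10, libraries were scaled by TMM, and a robust quasi-likelihood fit of the 12 libraries, with a mean for each group, gave F tests for 5 pairwise contrasts and the interaction. The standard error of a fold change was derived from the test, as the absolute log2 fold change divided by the square root of the F statistic. Benjamini-Hochberg adjustment covered all 14330 genes, and 0.05 was the threshold. "Rose" and "fell" mean past it. CPM is the count per M on the TMM-scaled library size, and log2 CPM has a prior count of 2. A count of 3, the floor of detection, came to 0.0786 to 0.102 CPM per library. The deposited FPKM served for levels per length. Relations used 100000 permutations, and ratios an exact permutation test.

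Alternatives were RLE scaling, no low-count filter, and fits of only the groups compared. DESeq2 1.42.0 and a block for the replicate number were also tried. Limma-trend 3.58.1 was run on log2(FPKM + 1), with and without a minimum FPKM of 1 in 3 libraries, and on log2(FPKM + 0.1). Libraries were left out singly, and antiPD1 replicate 3 together with IFNa replicate 1. Simulated counts, in which 200 genes had known fold changes, were used to check the fit. No libraries were duplicates of each other. Values in every library are given for the main chains of types I, III, IV, V, VI, XV and XVIII and for every member that passed a test. Fold changes are given for members that passed and for the smallest p in each direction and class; Col28a1, Col4a5, Col27a1, Col14a1, Col12a1 and the type I chains were given further values after these were seen. A result of the list of basement membrane partners is not reported here.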

Additional observations from a re-analysis of the deposited data

How the results depend on the processing

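Against untreated libraries, 5 members rose with antiPD1 and 1 with the combination, and 1 rose with the combination against IFNa. With antiPD1 the count was 2 with no low-count filter, 0 with only the groups compared, 14 with DESeq2, 0 with limma on unfiltered log2(FPKM + 1) and 1 with IFNa replicate 1 and antiPD1 replicate 3 both left out. With the combination it was 2 with only the groups compared, 5 with DESeq2, 2 with limma on log2(FPKM + 0.1) and 3 with those libraries left out, and against IFNa it was 2 with only the groups compared and 2 with DESeq2. Leaving out 1 library at a time gave 0 to 18, 0 to 15 and 0 to 1 members in these comparisons, and no member fell under any setting run. The cause was not tested. Single-gene estimates changed sign as follows: Col10a1 for the combination against untreated to 0.03 without untreated replicate 1 (lowest -1.1, without untreated replicate 2); Col11a1 for the combination against antiPD1 to -0.28 with the replicate block, -0.88 without combination replicate 1 and -0.05 without antiPD1 replicate 1; for the combination against IFNa, Col7a1 to 0.46 without IFNa replicate 1 and 0.43 without it and antiPD1 replicate 3, and Col4a4 to 0.23, 0.20 and, without combination replicate 2, 0.29 (lowest -0.94 for Col7a1, without IFNa replicate 2, and -0.37 for Col4a4, without combination replicate 1). The interaction of Col4a6 went to -0.13 without untreated replicate 3 and -0.20 without combination replicate 1 (highest 0.94, without untreated replicate 1). The r of Col1a1 and Ptprc was 0.54 to 0.79, that of Col1a1 and Col18a1 0.00 to 0.54 and that of Col18a1 and Hnf4a -0.15 to 0.13 (0.13, 0.09, 0.04 and 0.02 without combination replicate 1, antiPD1 replicate 3, untreated replicate 2 and IFNa replicate 3). The count of 3 that serves as a floor lies near the levels of Col4a4, Col4a6 and, in untreated libraries, Col6a5, which limits what can be seen of them.

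Replicate numbers were shared between groups. With the replicate number as a block, 9 members rose with antiPD1 and 5 with the combination. Of 18 same-number pairs of libraries, 8 had deviations correlated above 0.1 (range -0.3 to 0.5, against -0.6 to 0.5 for different numbers), and 7 of 12 libraries correlated best with their own number. These values do not settle whether libraries with the same number were paired, and the labels do not tell. The main test took the libraries as unpaired.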
